A study of Mus musculus with 6 samples.

Results

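The regions described here are 1865 promoters of protein-coding genes whose peak kept nearly the same rank in 6 ATAC-seq libraries of mouse blood. ATAC-seq uses the Tn5 transposase to cut and tag DNA that is not packed in nucleosomes, so a peak marks open chromatin. Blood was drawn, its red cells were lysed and the unsorted white cells were used. That is the account of the study's protocol. The study's results text speaks of mononuclear cells, which would hold few neutrophils, so the neutrophil genes below are read with that doubt. Of the libraries, 3 are from control mice kept in normoxia. The other 3 are labelled HADA, for high-altitude de-acclimatization: these mice had lived at simulated high altitude in a hypobaric chamber and were then returned to normoxia. All mice were C57BL/6j males, and the sampling time of these libraries within that phase is not given in the sources used here. Peaks on chromosomes 1 to 19 were merged where they shared 1 bp, which gave 60298 regions. Of these, 23013 held a peak in all 6 libraries, and 10109 of those also had a summit within 1 kb of the start of a protein-coding transcript, here called shared promoters. The height of a peak was taken from its −log10 p-value at the summit and expressed as a percentile among all peaks of its own library. A shared promoter was called stable when its highest and lowest percentile over the 6 libraries differed by at most 4 points. The promoters were thus chosen by their peak heights in all 6 libraries. The 1865 stable promoters are 18.4% of the shared promoters and serve 2263 genes. The other 8244 shared promoters lay outside the limit.

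Most mammalian promoters of widely used genes lie in CpG islands, stretches rich in the CG dinucleotide that are usually unmethylated. The start site there is kept free of nucleosomes in nearly every cell type, by general transcription factors and by factors such as SP and KLF proteins, NFY, NRF1 and the ETS family. Promoters of lineage genes are often poor in CpG and open only in the cells that use the gene. In blood, where lymphocytes, neutrophils and monocytes are mixed, a promoter open in all of them and a promoter open in a few can differ in how they follow the cell mixture. Because the cells were unsorted, fewer cells of a type and less access per cell cannot be told apart.

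The sequences below are examples of stable promoters. Each is the stretch upstream of the start, from the GRCm39 genome, 5′ to 3′ along the gene, with bases of annotated transcripts left out, so that it can begin some distance from the start. Capitals mark matches to the motifs searched that have 6 or more fixed letters. The summit of a promoter can lie outside the stretch shown. The first 4 are the promoters with the smallest range in 4 of 5 bands of height, from the top of the lists down to the middle. The band from percentile 90 to 96 is not shown, and its first promoter, at H2-T24, was poor in CpG, with an observed over expected ratio of 0.282 around the summit.
Smim7 (chr8:73324933-73325132, minus strand): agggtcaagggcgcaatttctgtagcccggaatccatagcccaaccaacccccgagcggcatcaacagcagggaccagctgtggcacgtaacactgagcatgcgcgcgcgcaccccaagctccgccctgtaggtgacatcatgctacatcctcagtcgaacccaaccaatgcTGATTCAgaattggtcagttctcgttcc
Smndc1 (chr19:53379086-53379285, minus strand): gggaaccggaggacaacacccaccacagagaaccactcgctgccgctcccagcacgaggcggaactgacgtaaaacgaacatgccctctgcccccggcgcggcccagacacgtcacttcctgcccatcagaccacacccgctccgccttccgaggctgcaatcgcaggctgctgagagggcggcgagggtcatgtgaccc
Wdr48 (chr9:119723722-119723921, plus strand): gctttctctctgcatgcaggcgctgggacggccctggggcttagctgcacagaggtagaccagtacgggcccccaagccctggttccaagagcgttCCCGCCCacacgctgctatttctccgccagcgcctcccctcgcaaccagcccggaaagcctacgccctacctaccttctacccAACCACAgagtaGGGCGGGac
Rreb1 (chr13:37962176-37962375, plus strand): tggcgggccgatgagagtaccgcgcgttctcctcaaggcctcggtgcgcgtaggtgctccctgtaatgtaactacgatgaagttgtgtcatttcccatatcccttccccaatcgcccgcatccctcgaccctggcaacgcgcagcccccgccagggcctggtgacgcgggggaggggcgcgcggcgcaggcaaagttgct

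These 4 stretches hold 12, 17, 12 and 21 CG dinucleotides in this order. The capitals mark an AP-1 match at Smim7 and SP/KLF and RUNX matches at Wdr48, and the other two stretches hold no such match. Smim7 encodes a small membrane protein and shares its promoter with Tmem38a, an endoplasmic reticulum potassium channel gene. Smndc1 encodes a splicing factor, Wdr48 an activator of deubiquitinases and Rreb1 a zinc finger transcription factor.

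The next 2 are stable promoters of stress response genes. Nfe2l2 encodes NRF2, the regulator of the antioxidant response that the study singled out, and Bnip3 encodes a mitophagy receptor induced by low oxygen.
Nfe2l2 (chr2:75534986-75535185, minus strand): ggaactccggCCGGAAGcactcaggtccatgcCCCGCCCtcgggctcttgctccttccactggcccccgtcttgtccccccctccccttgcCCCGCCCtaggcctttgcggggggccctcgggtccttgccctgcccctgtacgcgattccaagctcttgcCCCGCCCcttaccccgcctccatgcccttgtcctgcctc
Bnip3 (chr7:138511254-138511453, minus strand): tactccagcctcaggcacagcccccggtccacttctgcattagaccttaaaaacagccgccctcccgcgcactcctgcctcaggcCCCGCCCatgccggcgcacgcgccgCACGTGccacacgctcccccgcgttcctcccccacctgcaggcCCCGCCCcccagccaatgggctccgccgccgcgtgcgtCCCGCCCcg

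The Nfe2l2 stretch holds 12 CG dinucleotides, with an ETS match and 3 SP/KLF matches in capitals. The Nfe2l2 summit lay 286.5 bp downstream of the start, outside this stretch. The Bnip3 stretch holds 22 CG dinucleotides, with 3 SP/KLF matches and the E-box CACGTG, which contains the core ACGTG of the hypoxia response element. The last 2 belong to head-to-head gene pairs, in which genes on opposite strands share the stretch between their starts. Zranb3, a replication-stress helicase gene, faces R3hdm1, and Septin2, a cytoskeletal GTPase gene, faces Hdlbp, which encodes an RNA-binding protein.
Zranb3 and R3hdm1 (chr1:128030802-128031001, minus strand): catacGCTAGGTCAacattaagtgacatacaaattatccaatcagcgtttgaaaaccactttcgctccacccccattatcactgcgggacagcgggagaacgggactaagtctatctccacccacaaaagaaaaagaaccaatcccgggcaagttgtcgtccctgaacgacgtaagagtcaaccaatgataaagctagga
Septin2 and Hdlbp (chr1:93406125-93406230, plus strand): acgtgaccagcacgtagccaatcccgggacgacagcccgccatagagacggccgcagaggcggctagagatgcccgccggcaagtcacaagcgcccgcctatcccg

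The starts of these pairs lie 207 and 107 bp apart. The capitals at Zranb3 mark the letters of an NRF2 match, and the Septin2 stretch has 13 CG dinucleotides and no match in capitals.

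The labelled tissue was checked by its markers. Of 9 white cell markers, 6 had a promoter peak in all 6 libraries, among them the pan-leukocyte gene Ptprc, and of 5 markers of liver, heart, skin, islet and glia none had one in any library. Control 1 to 3 listed 41562, 41322 and 34128 peaks and HADA 1 to 3 listed 44478, 44119 and 45885, so control 3 stood apart with the shortest list. The lowest local background of a list, which follows depth, was 1.69, 2.05 and 1.83 reads for control against 2.34, 1.99 and 2.27 for HADA, and the groups overlapped. The labels do not say which libraries came from separate animals, so p-values measure the spread between these libraries. Values that use heights are therefore given below as descriptions, with no test.

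The stable promoters were mainly the tall ones. Their mean percentile over the 6 libraries had a median of 96.6 and ran from 64.4 to 99.9, and their range had a median of 2.21 points against 11.9 over all shared promoters. Of the shared promoters at a mean percentile of 98 and over, 569 of 579 (98.3%) were stable. The share was 77.8% (518 of 666) from 96 to 98, 33.9% (623 of 1838) from 90 to 96 and 4.32% (152 of 3520) from 75 to 90. Below that it was 3 of 2653 promoters from 50 to 75 and 0 of 853 under 50. Part of this follows from the scale, since a promoter at or above percentile 96 in every library cannot have a range over 4: this holds for 786 stable promoters (42.1%). The 155 with a mean under 90 lie farthest from that ceiling. Distal regions, with no such start within 1 kb, had a median range of 30.9 points over 12904 shared regions, and 247 of them (1.91%) lay within the limit. They were also lower, with a median percentile of 56.3, and shared promoters from percentile 50 to 75 had a median range of 23.9.

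**Figure D1:**
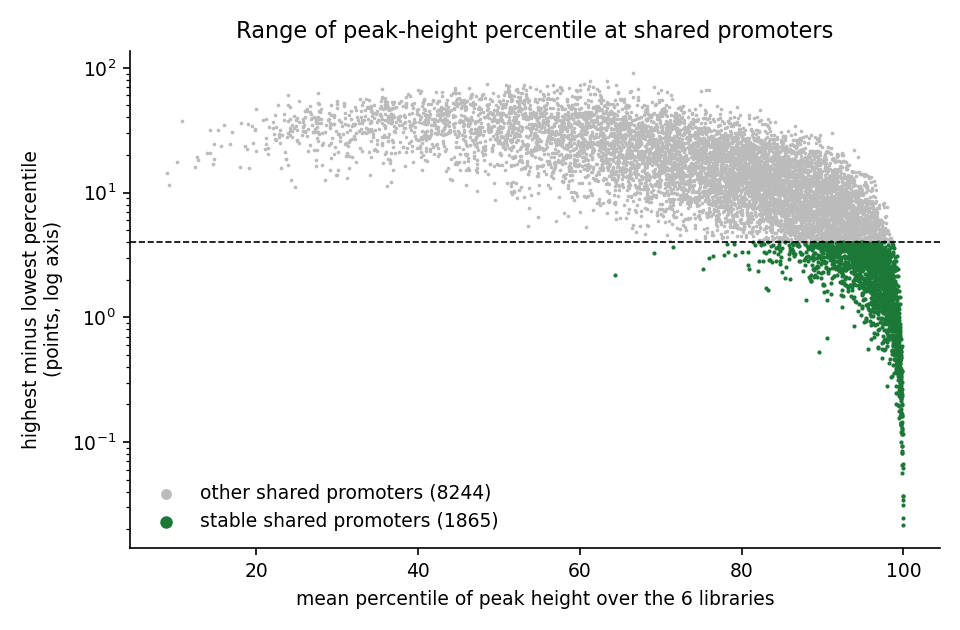
Mean percentile of peak height over the 6 libraries (horizontal axis) against the range over the 6 libraries in percentile points (vertical axis, log scale) for the 10109 shared promoters. Stable promoters (1865, green) lie under the dashed line at 4 points and crowd at the right edge, where 569 of 579 promoters with a mean of 98 and over are stable.

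The number of stable promoters rests in part on control 3. Without that library, 2812 promoters passed the same limit over the other 5, and the 1865 shared 1862 with them. Among the stable promoters, control 3 gave the lowest percentile at 791, control 2 at 341 and HADA 2 at 326, while HADA 1 gave the lowest at 68. Ranking by fold enrichment over local background in place of −log10 p left 1050 promoters, of which 686 were among the 1865 (36.8% of the 1865, 65.3% of the 1050). Just inside the limit stood Crtc2, a CREB coactivator gene, Cks2, a cell cycle kinase subunit gene, and Bbx, each less than 0.01 points under the limit. Just outside stood the proteasome gene Psmd7, Fam219a and the pair Gm58608 and Eif5, each less than 0.01 points over it.

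At the very top, 10 shared promoters with a mean of 98 and over missed the limit, with ranges from 4.01 (Aco1, the iron-regulated cytosolic aconitase) to 4.896 (Mrps28, a mitochondrial ribosomal protein). Their control mean was the lower one at 9 of 10, and control 3 was the lowest library at 9 of 10. The exception in direction was Slc35f5, a nucleotide-sugar transporter gene, with a mean percentile of 99.7 in control and 96.8 in HADA.

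Values of individual stable promoters follow, and their percentiles lie close together by the choice made. At Smim7 and Tmem38a the percentile was 99.90, 99.91 and 99.89 in control and 99.90, 99.89 and 99.89 in HADA, a range of 0.0215 points, the smallest of all. The pileup, the number of reads over the summit solved from the deposited values, was 687, 682 and 917 in control and 982, 753 and 738 in HADA, so libraries of the same rank differed in raw height. The next smallest ranges in this band were at Cdca3 and Usp5 (0.0247), Ensa (0.0312) and Tacc3 (0.0341). Cdca3 and Tacc3 act in cell division, Usp5 is a deubiquitinase and Ensa encodes an inhibitor of a mitotic phosphatase.

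From percentile 96 to 98, Smndc1 had 98.14, 97.86 and 98.05 in control and 97.91, 98.04 and 97.94 in HADA, with pileups of 373, 335 and 457 against 549, 439 and 432. Nabp1, which encodes a single-strand DNA-binding protein, the pair Spsb3 and Nubp2, and Fth1, the ferritin heavy chain that stores iron, followed with ranges of 0.468, 0.544 and 0.557. From 90 to 96, the leading promoters were H2-T24, a non-classical MHC class I gene (0.553), Pcf11, a transcription termination factor (0.670), Zc3h10 (0.687) and Scyl2 (0.858), a gene of clathrin traffic.

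Lower promoters that held their rank have room to move in both directions. Wdr48 lay at 89.2, 89.5 and 89.8 in control and 89.4, 89.7 and 89.6 in HADA, with pileups of 130, 127 and 160 against 206, 177 and 178. Bst2, the interferon-induced tetherin gene, lay at 82.8, 84.2 and 83.4 in control and 82.5, 82.7 and 82.5 in HADA. In both, the percentiles of the groups stayed within 2 points of each other, overlapping at Wdr48 and lying just apart at Bst2. Ric1 (1.37) and Ctdsp2 (1.66), a phosphatase gene of the RNA polymerase II tail, complete this band.

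Only 3 stable promoters had a mean under 75. Rreb1 lay at 63.1, 63.9 and 65.3 in control and 64.7, 65.1 and 64.2 in HADA, with pileups of 50, 49 and 59 against 78, 65 and 69. Its summit lay 1068 bp downstream of the start chosen for it, outside the upstream stretch shown above. The other two were Slc45a4, a solute carrier gene, with a mean of 69.1 and a range of 3.25, and Sh2d3c, an adaptor gene of lymphocyte migration, with 71.6 and 3.69. The observed over expected ratio of CpG around the summit was low at Rreb1 (0.371) and Slc45a4 (0.260), where the stable promoters had a median of 0.856. The upstream stretch of Slc45a4 has 4 CG dinucleotides and a match to TATAAA, in capitals here.
Slc45a4 (chr15:73468379-73468578, minus strand): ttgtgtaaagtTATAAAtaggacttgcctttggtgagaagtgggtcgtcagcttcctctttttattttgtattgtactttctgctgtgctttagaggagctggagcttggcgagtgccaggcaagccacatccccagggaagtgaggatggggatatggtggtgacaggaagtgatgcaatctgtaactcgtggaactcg

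The groups were then compared for where the stable promoters stood as a class. Over control 1 to 3 their median percentile was 97.02, 96.39 and 95.98, and over HADA 1 to 3 it was 96.98, 96.76 and 96.82. That of the other shared promoters was 79.3, 75.7 and 71.0 in control and 82.0, 81.5 and 82.3 in HADA. The median difference of HADA minus control was thus 0.28 points at the stable promoters, by the choice made, and 6.21 at the others. With the control mean taken without control 3, an alternative chosen after seeing the data, these were 0.13 and 4.19. The libraries of a group also differed, with a median range of 1.24 points in control and 0.80 in HADA at the stable promoters, against 9.49 and 3.29 at the others.

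The pileups describe the same promoters on a scale of reads. The median pileup at the stable promoters was 290, 253 and 309 reads in control and 460, 354 and 361 in HADA. Divided by the pileup of the median shared promoter of the same library, it was 2.69, 2.81 and 3.40 in control and 2.49, 2.31 and 2.27 in HADA, with every HADA library below every control library. This follows in large part from the choice: the ranks of the stable promoters were held level, while the median percentile of all shared promoters was 83.4, 80.6 and 76.8 in control and 85.5, 85.3 and 85.9 in HADA. On this scale 1822 stable promoters (97.7%) had a lower mean in HADA, with a median log2 difference of -0.35, against 42.8% and 0.08 at the other shared promoters, and nothing is read from that contrast. Divided by the library background instead, the median log2 difference was 0.19 at the stable promoters and 0.62 at the others, so the direction depends on the scale. All shared promoters together stood 0.50 higher in HADA on the background scale. These scales differ by a constant within a library, so the stable promoters stand equally far below the others on both.

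**Figure D2:**
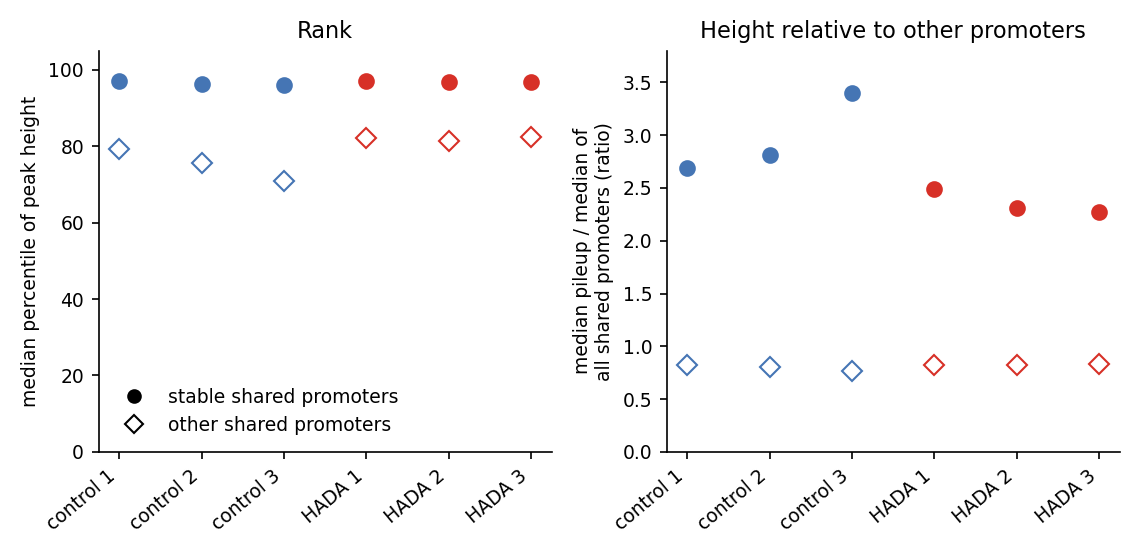
Median percentile (left) and median summit pileup as a ratio to the median shared promoter of the same library (right) for each of 6 libraries, control in blue and HADA in red, with the 1865 stable promoters as filled and the 8244 others as open points. The filled points stay between 95.98 and 97.02 on the left while on the right they run from 2.69 to 3.40 in control and from 2.27 to 2.49 in HADA.

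Which genes these promoters serve was read from 25 gene lists. Of all 10600 protein-coding genes with a shared promoter, 2263 (21.3%) had a stable one, and this is the background for each list. Among genes of general cell machinery, 14 lists together gave 302 of 1190 genes (25.4%). Chaperones and heat shock proteins gave 26 of 62 (41.9%), spliceosome and hnRNP proteins 31 of 75 (41.3%) and chromatin modifiers 31 of 76 (40.8%). These shares carry no test, and the lists also differ in height, with a median percentile of 92.3, 90.2 and 91.4 in these 3 lists against 84.5 over all genes.

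In the folding, splicing and chromatin lists, the smallest ranges were at Cct3, a chaperonin subunit (0.457), Hspa4 (0.629) and Dnajb9 (0.701), at the hnRNP genes Hnrnpa0 (0.249) and Hnrnpc (0.475) with the snRNP gene Snrpd3 (0.579), and at the histone demethylase genes Kdm4a (0.167) and Kdm3a (0.294) with Setd5 (0.521). Protein turnover and traffic followed at about 3 in 10. Proteasome subunits gave 12 of 36 (33.3%), vesicle traffic 37 of 120 (30.8%) and ubiquitin enzymes 28 of 91 (30.8%). Psmb9, an immunoproteasome subunit that shares its promoter with the peptide transporter gene Tap1, had a range of 0.770 and pileups of 369, 356 and 423 in control against 606, 475 and 432 in HADA. Rab4b, a GTPase gene of endosome recycling, had a range of 0.243.

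Lists of protein synthesis and energy were nearer the background. Cytosolic ribosomal proteins gave 20 of 73 (27.4%), translation factors 17 of 62 (27.4%), mitochondrial ribosomal proteins 18 of 76 (23.7%) and respiratory chain subunits 18 of 76 (23.7%). Rps19, a protein of the small ribosomal subunit, lay at 99.92, 99.89 and 99.93 in control and 99.87, 99.81 and 99.73 in HADA. Its groups do not overlap, although the whole range was 0.198 points. Eif1, a start codon selection factor (0.594), Cox7a2l, a supercomplex assembly factor (0.433), and Mrpl54 (0.616) were among the others.

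Some machinery lists were at or under the background. Replication and repair gave 12 of 59 (20.3%), RNA polymerase II and Mediator 14 of 73 (19.2%), and genes named Zfp, mostly zinc finger repressors, 37 of 291 (12.7%). Single genes still held closely: Polr2a, the large subunit of RNA polymerase II, had a range of 0.497, the pair Orc6 and Vps35 0.455, and Zfp869 0.0565. Of 20 cytosolic aminoacyl-tRNA synthetases, which load amino acids onto tRNA, 1 had a stable promoter, Cars1 with a range of 3.90.

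**Figure D3:**
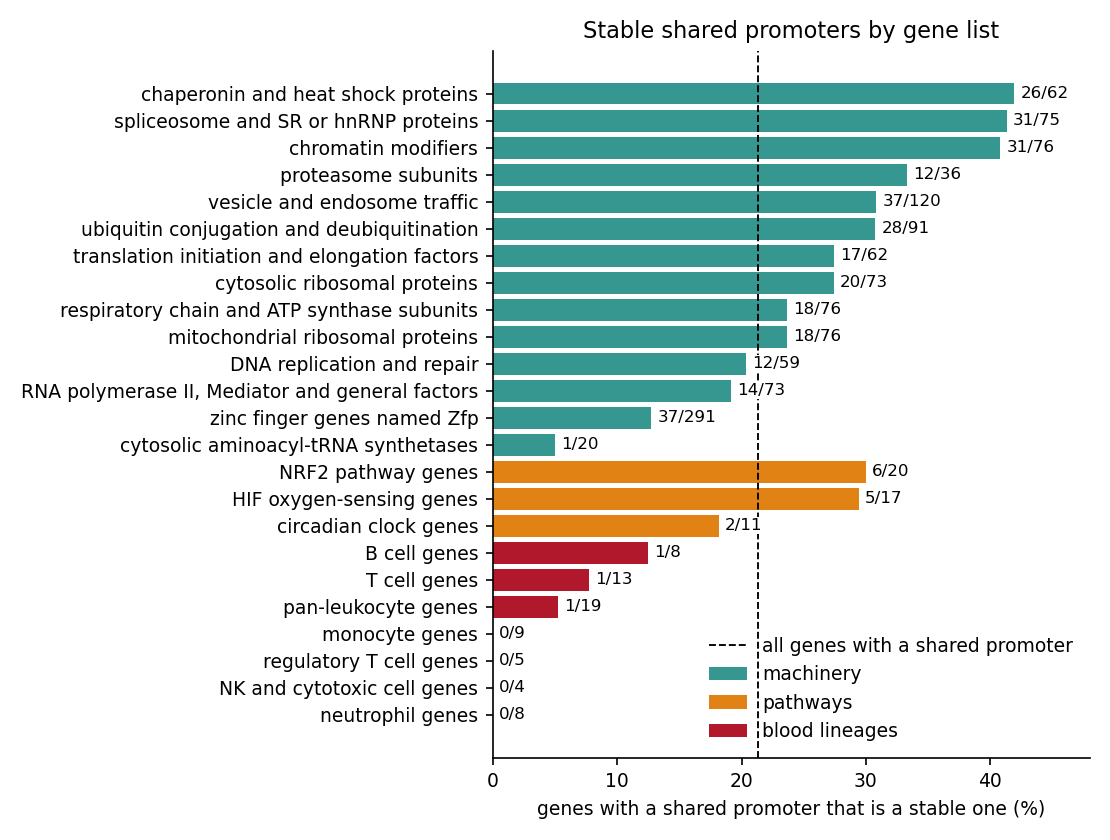
Share of genes with a shared promoter that have a stable one (horizontal axis, percent) for each gene list, with the counts printed beside each bar. The dashed line is the share over all 10600 genes, 21.3%: chaperones, splicing and chromatin lists reach about 41%, and the blood lineage lists lie between 0 and 12.5%.

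Blood lineage genes were seldom at stable promoters. Over 7 lineage lists, 3 of 66 genes with a shared promoter (4.55%) had a stable one. These lists also stood lower, with median percentiles from 47.2 in neutrophil to 81.4 in pan-leukocyte genes against 84.5 over all genes, and at such heights few promoters of any kind were stable. The 3 genes were Cd3d, a subunit of the T cell receptor complex, Cd37, a tetraspanin of B cells and other leukocytes, and Coro1a, a leukocyte actin regulator. Cd3d lay at 94.97, 94.30 and 95.70 in control and 96.45, 93.11 and 94.90 in HADA. Cd37 lay at 97.76, 97.15 and 97.996 against 97.61, 98.52 and 97.62, and Coro1a at 96.49, 94.61 and 94.51 against 96.88, 97.35 and 96.03. At all 3 the groups overlapped, and their CpG ratios of 0.175, 0.358 and 0.388 are low beside the median of 0.856. The Cd3d summit lay about 840 bp downstream of its start. Another shared promoter of Coro1a had a range of 28.2 points and was not stable.

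The lineage lists as a whole differed in direction between groups, beside a median difference of 4.33 points over all shared promoters. The mean percentile was higher in HADA at 8 of 8 promoters of B cell genes, 14 of 15 of T cell genes and 5 of 5 of NK and cytotoxic genes, with median differences of 27.2, 16.4 and 17.2 points. Taking the control mean without control 3 left the medians at 14.5, 10.99 and 13.3 points, against 2.83 over all shared promoters. The mean percentile was lower in HADA at 8 of 8 promoters of neutrophil genes, with a median of -19.7, and without control 3 at 7 of 8. Monocyte genes had 4 promoters higher and 6 lower, with a median of -9.22, and regulatory T cell genes 4 higher and 2 lower, with a median of 1.20 that was -0.07 without control 3. Ms4a1, the B cell gene for CD20, lay at 82.1, 72.2 and 25.9 in control and 92.5, 92.7 and 90.5 in HADA, so control 3 set much of the difference. S100a8, an abundant neutrophil protein gene, lay at 66.7, 65.1 and 72.6 against 55.8, 21.5 and 33.1. Pan-leukocyte genes were split, with 14 promoters higher and 13 lower. Among these lay promoters near the limit, such as Runx1 (4.25) and Ptprc (6.89), the gene of the common leukocyte antigen CD45. The part of these lineage differences in the ranks of the stable promoters was not tested.

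Genes of the oxygen and oxidative stress responses, which bear on a return from hypoxia, were counted in the same way. Of 20 genes of the NRF2 pathway with a shared promoter, 6 had a stable one (30%), and of 17 oxygen-sensing genes around HIF, 5 (29.4%). The share over all genes with a shared promoter was 21.3%. These 2 lists also stood higher, with a median percentile of 90.2 and 92.8 against 84.5 over all genes. Of all shared promoters from percentile 90 to 96, 33.9% were stable. Nfe2l2 itself lay at 97.8, 96.5 and 98.4 in control and 97.3, 96.2 and 95.6 in HADA, a range of 2.80 with overlapping groups. Its pileup was 439, 337 and 586 against 642, 452 and 444. Of the other stable promoters, Fth1 lay at 97.6, 97.2 and 97.3 against 97.1, 97.1 and 97.6. The remaining 4 were the small Maf genes Maff (3.26) and Mafk (3.60), whose products pair with NRF2, Bach1 (3.56), which encodes its competitor, and the thioredoxin gene Txn1 (3.60).

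Several NRF2 genes were close to the limit and others far from it. Ftl1, the ferritin light chain gene, missed it by less than 0.01 points, Keap1, the inhibitor of NRF2, had 4.49 and Txnrd1 4.57. The inducible enzymes Hmox1, which breaks down haem, Nqo1 and Srxn1 had ranges of 25.7, 22.3 and 28.4. Srxn1 had a mean of 95.4 in control and 75.2 in HADA. Among HIF genes, the mitophagy genes Bnip3l (0.575) and Bnip3 (2.05), Cited2 (1.47), a negative regulator of HIF, the angiogenic factor gene Vegfa (2.59) and Ankrd37 (3.44) were stable. Bnip3 lay at 95.5, 94.5 and 95.6 in control and 95.6, 94.2 and 93.6 in HADA, with overlapping groups. The oxygen-sensing hydroxylase genes were outside the limit, with ranges of 4.87 at Egln2, 7.42 at Hif1an, 22.2 at Egln3 and 32.7 at Egln1. Vhl, which encodes the ubiquitin ligase subunit that recognises hydroxylated HIF, had 5.02 and the factor gene Hif1a 10.8. Of 11 circadian clock genes with a shared promoter, the repressors Cry1 (1.43) and Per1 (2.80) had a stable one. That is 18.2%, against 21.3% over all genes. Another shared promoter of Per1 lay outside the limit, with a range of 4.46.

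Of a list of 7 factors and target genes among those the study named, 1 had a stable promoter, Nfe2l2. Nfe2, a factor of megakaryocytes and red cell precursors, lay at 85.7, 85.4 and 92.1 in control and 81.8, 73.8 and 73.6 in HADA. The chemokine receptor gene Ccr1 lay at 83.3, 79.0 and 82.6 against 76.6, 65.2 and 62.5, and the cytokine gene Il1b at 59.5, 60.3 and 73.0 against 41.0, 26.1 and 10.6. At these 3 all HADA libraries were below all control libraries, as they were at 853 of all 10109 shared promoters (8.44%). Egr2 overlapped, with 90.2, 77.3 and 84.7 against 81.4, 87.1 and 87.4. Alox15 and Mesp1 had no shared promoter.

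**Figure D4:**
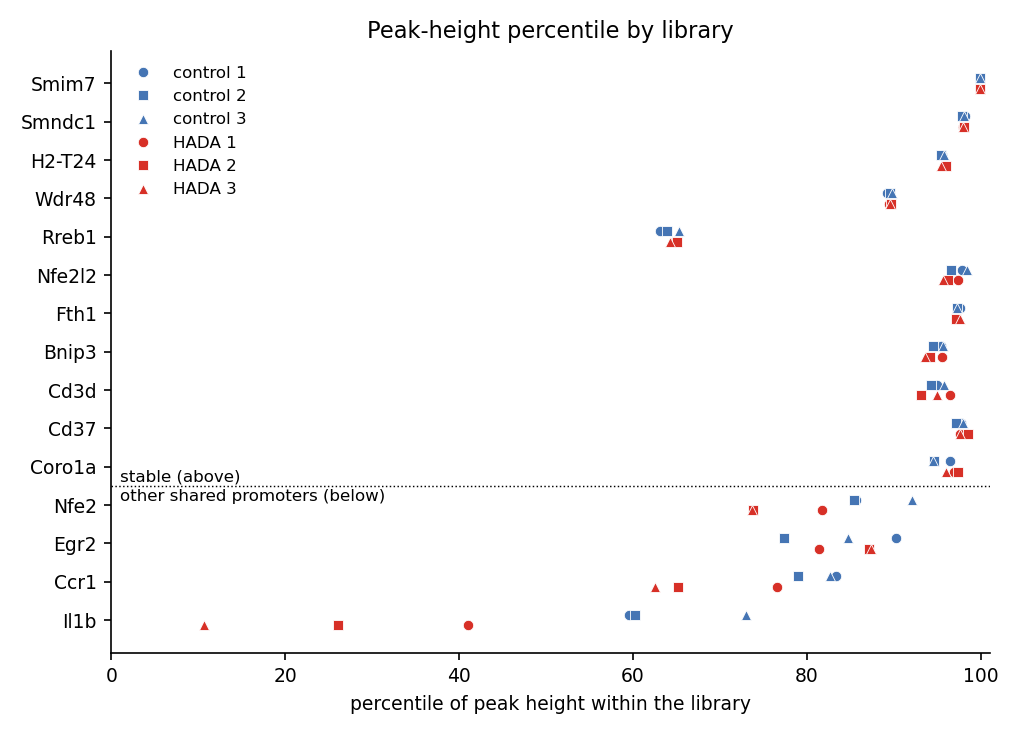
Percentile of peak height in each library (horizontal axis), control in blue and HADA in red, at 11 stable promoters and, below the divider, at 4 promoters outside the limit. The points of a stable promoter lie within 4 points at every level from Smim7 (99.9) to Rreb1 (63.1 to 65.3), whereas Il1b runs from 73.0 down to 10.6.

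Features that the choice did not use were compared next, as shares beside those of all shared promoters. The stable promoters were richer in CpG, with a median observed over expected ratio of 0.856 within 250 bp of the summit against 0.788 at the others, at nearly the same GC content (65.3% and 64.1%). Within bands of height the medians were 0.859 against 0.804 from percentile 96 to 98, 0.873 against 0.842 from 90 to 96 and 0.871 against 0.823 from 75 to 90. The bands do not match height fully, since the stable promoters had the higher median percentile in every control library within each of them. Head-to-head pairs, with a start of another protein-coding gene on the opposite strand within 1 kb, made up 290 stable promoters (15.5%) and 550 of the others (6.67%). Within the bands these shares were 15.1% against 11.5%, 15.4% against 11.4% and 11.2% against 8.14% from the highest of these 3 bands to the lowest. Smim7 with Tmem38a and Cdca3 with Usp5 are such pairs, as are the 2 pairs whose sequences are shown above.

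Motif letters were looked for on either strand up to 100 bp from the summit. The share of stable promoters with a match, and of all shared promoters, was 24.2% and 20.8% for the NFY letters CCAAT, 32.8% and 30.8% for SP/KLF (GGGCGGG), and 13.2% and 12.1% for ETS (CCGGAAG). It was 2.68% and 1.76% for NRF1 (GCGCATGCG), 4.24% and 3.41% for YY1 (AANATGGCG), 1.61% and 1.15% for BANP (CTCGCGAG), 2.09% and 1.64% for CRE (TGACGTCA) and 0.214% and 0.168% for ZNF143 (ACTACAATT). These are letters of factors that bind many CpG-rich promoters.

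Factors of blood lineages and of regulated genes were counted in the same way. The shares were 1.77% and 2.02% for PU.1 (GAGGAAGT), 2.14% and 2.29% for RUNX (TGTGGTT), 1.93% and 2.41% for AP-1 (TGANTCA), 4.08% and 4.25% for CEBP (TTGCNNAA) and 5.25% and 6.005% for the E-box (CACGTG). These 5 were slightly lower at the stable promoters but near the share over all shared promoters, and nothing is read from them. The shares were 2.63% and 2.27% for TATAAA and 8.79% and 8.96% for CTCF (AGNNGGCGC). For the NRF2 letters TGACNNNGC they were 11.7% and 10.5%. For the HIF core ACGTG, which lies inside the E-box, they were 19.1% and 18.6%. Of these 4, the CTCF share alone was lower at the stable promoters, and all lay near the share over all shared promoters. The ETS share was not one-directional with height: 20.4% against 14.5% at the other promoters from percentile 75 to 90, and 10.8% against 13.5% from 96 to 98.

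The surroundings of the stable promoters were like those of the rest. A region found in all 3 HADA libraries and no control library (4314 in all) lay within 50 kb of 29.1% of stable and 31.5% of other promoters. A control-only region (1120 in all) lay within 50 kb of 9.54% and 9.41%. Distal shared regions lay within 50 kb of 59.4% and 59.5%, and the median range of those distal regions was 26.2 and 28.4 points. Stable promoters made up from 15.0% (chromosome 14) to 21.7% (chromosome 17) of the shared promoters of a chromosome.

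Where in the promoter the summit lay was not used in choosing, beyond the 1 kb limit that all shared promoters meet, and was tested. The position of the strongest summit, in bp from the start along the gene, was compared between groups over all 10109 shared promoters with limma and Benjamini-Hochberg adjustment. The median position over the stable promoters was 41, 36 and 49 bp in control and 35, 26 and 25 bp in HADA. This is 42 ± 6.56 against 28.7 ± 5.51 bp (SD, n = 3 each), a difference of -13.3 bp. The groups did not overlap, with an exact two-sided permutation p of 0.1, the least that 3 libraries a group allow. The other shared promoters stood likewise, at 61, 56 and 70 bp in control and 55, 49 and 51 bp in HADA, so this is not particular to the stable ones. The median fitted difference was -3.33 bp at stable and -4 bp at all shared promoters.

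At an adjusted p under 0.05, 15 stable promoters (0.804%) had the summit further downstream in HADA, against 0.841% of all shared promoters, and 18 (0.965%) further upstream, against 1.2%. Both shares are close to the background and say nothing particular to the stable promoters. Without control 2, 50 were called in place of 33. At all 33 the groups did not overlap and each library had 1 peak in the region. The shifts had a median size of 232 bp and ran from 131 to 1699 bp, with 2 over 500 bp. The start nearest to the summit differed between groups at 16 of the 33, and at 5 it belonged to another gene.

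The 4 calls with the smallest p were at Fmc1, Nr3c1, Mdm2 and Cactin. At Fmc1, which encodes an assembly factor of the mitochondrial ATP synthase, the summit lay at -1142, -1136 and -1141 bp in control and at 239, 239 and 220 bp in HADA. The difference was 1372 ± 11.9 bp (SE), with a limma adjusted p of 1.57e-06. Its height was 362, 313 and 503 reads in control and 542, 371 and 430 in HADA, with overlapping groups. The bases around the median summit of each group, along the gene, are shown because the strongest summit lay there in one group and not in the other. The control stretch lies in an exon of an Fmc1 transcript with no annotated coding sequence, and the HADA stretch lies in an Fmc1 intron that overlaps the antisense gene Gm67913.
Fmc1 in control (chr6:38510571-38510631): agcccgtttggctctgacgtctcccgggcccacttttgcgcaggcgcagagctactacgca
Fmc1 in HADA (chr6:38511951-38512011): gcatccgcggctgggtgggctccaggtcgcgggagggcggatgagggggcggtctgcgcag

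Nr3c1 encodes the glucocorticoid receptor and has several first exons with starts of their own. Its summit lay at -1764, -1784 and -1743 bp in control and -71, -42 and -81 bp in HADA, a difference of 1699 ± 17.8 bp (SE) with a limma adjusted p of 2.13e-06. The control summit was 147 bp upstream of one Nr3c1 start and the HADA summit 71 bp upstream of another. It ranked at percentile 89.6, 87.5 and 89.0 in control against 89.4, 87.1 and 86.7 in HADA, which lie within 4 points by the choice made.

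Mdm2, the ubiquitin ligase gene that restrains p53, also has an inner and an outer start. Its summit lay at -33, -14 and -25 bp in control and -333, -331 and -331 bp in HADA, a difference of -308 ± 11.5 bp (SE) with a limma adjusted p of 0.000221. The HADA summit was 50 bp upstream of the outer start. At Cactin, a regulator of innate immune signalling and splicing, the summit lay at -69, -85 and -56 bp in control and -421, -400 and -414 bp in HADA. The difference was -342 ± 13.8 bp (SE), with a limma adjusted p of 0.000296, at percentiles of 99.3, 99.0 and 99.3 in control and 99.0, 99.4 and 99.3 in HADA. Both stretches lie upstream of the gene, outside any annotated transcript, and the capitals in the HADA stretch mark the SP/KLF letters.
Cactin in control (chr10:81156838-81156898): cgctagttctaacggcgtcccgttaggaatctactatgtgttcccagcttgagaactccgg
Cactin in HADA (chr10:81156493-81156553): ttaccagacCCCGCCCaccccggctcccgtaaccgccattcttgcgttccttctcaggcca

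Further calls were chosen after their values were seen. At Rps27l, a ribosomal protein-like gene and p53 target, the summit lay at 183, 149 and 197 bp in control and -157, -161 and -173 bp in HADA, a difference of -340 ± 16.7 bp (SE) with a limma adjusted p of 0.000625. At Zfp654, which shares its promoter with Cggbp1, it lay at -324, -338 and -351 bp in control and -66, -73 and -51 bp in HADA, and the control summit was nearest to the Cggbp1 start. The other pairs of genes between whose starts the summit differed were Cramp1 and Ift140, Stk32c and Lrrc27, Chmp5 and Bag1, and Hspa1a and Hspa1l, the last a pair of heat shock genes. The Hspa1a call, at a limma adjusted p of 0.0224, was lost with any library but HADA 2 left out (adjusted p from 0.0509 to 0.0885), and the Chmp5 call, at 0.00980, without HADA 2 (0.0579).

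**Figure D5:**
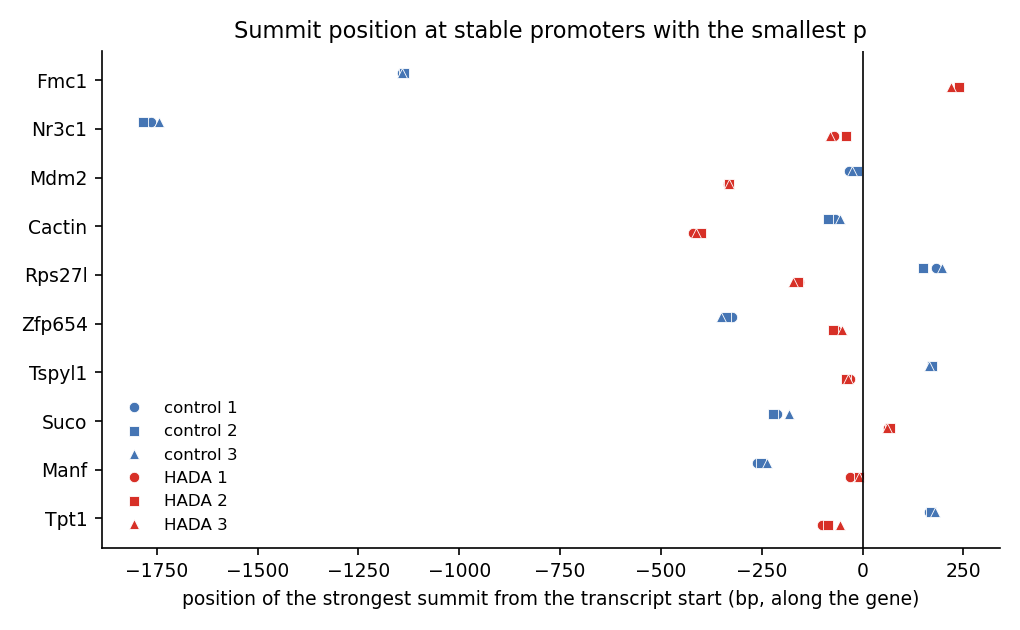
Position of the strongest summit in bp from the transcript start along the gene (horizontal axis) in each of 6 libraries, control in blue and HADA in red, at the 10 stable promoters with the smallest p for a difference in position. At Fmc1 the 3 control libraries lie between -1142 and -1136 bp and the 3 HADA libraries between 220 and 239 bp, and at each of the 10 the groups do not overlap.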

How the data were processed

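ATAC-seq of unsorted peripheral-blood white cells gave 6 peak lists, 3 control and 3 HADA, with groups and numbers from the labels. Per the submitters' notes and the study's methods, the authors used Trimmomatic for trimming, Bowtie2 for alignment to GRCm39, Picard for duplicates and MACS2 for peaks, 1 list a library. Caller options and any Tn5 shift of reads are not given in the sources used here, so summits can lie a few bases from the cut sites. The deposited lists give per peak the fold over local background, the −log10 p-value and the −log10 q-value, beside a score, which is not used here. A fold or p-value belongs to its own list, so heights were compared as percentiles: the mean rank of the deposited −log10 p-value among all peaks of the library, times 100, over their number. The highest q-value listed was 0.0498.

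Starts came from the GENCODE annotation of GRCm39. Pileup and background were solved from the deposited fold and −log10 p-value, with a relative tolerance of 0.0001, for 100% of peaks, and total reads were not used. Summit positions were fitted with limma 3.58.1 in R 4.3.3 on bp, HADA against control, without the replicate number, and a group median was compared by an exact permutation test. Everything else used Python 3.11.15, numpy 2.4.6, pandas 2.3.3 and scipy 1.17.1. The fit was tested on simulated normal values with known shifts added. Such values do not jump between separate places in a region, as the strongest summit can, so the simulation does not cover such jumps. Depth limits which weak peaks a list holds, and a longer list raises the percentile of a peak of given height.

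The promoters, gene lists and tests were chosen with earlier results of these data known. Named promoters were the 4 of smallest range in each height band, up to 3 of each gene list or 6 of a lineage list, those nearest to the limit, 7 genes among those the study named and the 4 position calls of smallest p; others were chosen after their values were seen. Alternatives were another limit, measure, start window, merge overlap, peak threshold, left-out library and search distance. Some items that meet these rules are not reported here.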

Additional observations from a re-analysis of the deposited data

How the results depend on the processing

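The count of 1865 stable promoters went to 1050 when fold enrichment was ranked in place of −log10 p, and ranged from 1963 to 2812 with 1 library left out, the highest being without control 3. It was 1340 and 2403 with limits of 3 and 5 points. The share of stable promoters at or above percentile 96 in every library, 42.1%, was 57.7% and 32.7% with limits of 3 and 5 points, 30% by fold, and 34.5% to 40.1% with a library left out. The median CpG ratio was 0.841 by fold, 0.867 within 100 bp and 0.814 within 500 bp, and 0.854 to 0.859 with a library left out. The share with an ETS match was 5.74% within 50 bp and 31.4% within 250 bp of the summit, and 13.1% to 14.4% with a library left out, while the head-to-head share of 15.5% ranged from 14.5% to 15.7%. The share near a HADA-only region was 25.05% by fold, 12.4% within 20 kb and 31.0% to 42.8% with a library left out, where fewer libraries define HADA-only.

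Summit position calls with the replicate number as a block, which could pair the samples, were 87 in place of 206 over all shared promoters and 13 in place of 33 at the stable ones, the 13 being among the 33. The calls at Cramp1, Stk32c and Hspa1a were among those lost, at adjusted p of 0.0561, 0.0765 and 0.154. The numbers were not taken to pair the libraries: deviations of same-numbered libraries correlated at -0.0080, 0.093 and 0.012, and control 1 and control 3 correlated best with another number. With a library left out, the calls ranged from 173 to 285 and from 30 to 50, the highest at the stable promoters being without control 2, and 12 of the 33 were called in every alternative run for them. The difference in the median summit position ranged from -16.5 to -9.83 bp with a library left out. The summit position differences kept their sign in the alternatives run for them. The balance of calls at the stable promoters, 15 downstream and 18 upstream, became 17 and 14 without HADA 2, 7 and 6 with the block, and 12 and 11 when peaks with a −log10 q under 5 were dropped. The cause of the changes was not tested. Peak lists hold no region below the caller's limit, so stability could be seen only at promoters with a peak in every library.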
